A study of Mus musculus with 4 samples.

Results

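The 38 Hox genes examined here, from the A, B, C and D clusters of the mouse, encode homeodomain transcription factors. A TLE3 region was taken as a Hox region where the deposited tables name one of these genes as the gene with the nearest start site, at any distance. The rule gave 29 regions out of 69599 in the union of the 3 depot lists, and these 29 regions named 16 of the 38 genes. Hox genes stand in 4 clusters in the order in which they are used along the body axis, and their proteins bind DNA together with PBX and MEIS partners. They keep a record of body position in mesenchymal cells, and fat depots are known to differ in the Hox genes that their progenitors express. TLE3 is a corepressor of the Groucho family that does not bind DNA itself and is brought to chromatin by other factors.

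TLE3 was mapped by chromatin immunoprecipitation and sequencing (ChIP-seq) in cells grown from 3 mouse fat depots: white fat of the epididymis (eWAT), white fat of the groin (iWAT) and a pool of brown depots (BAT; interscapular, cervical and axillary). The donors were male NMRI mice aged 4 to 5 weeks, with 10 to 15 mice in a pool, and no group carried a mutation or transgene in the labels. Stromal-vascular cells of every depot were grown in newborn calf serum with 30 nM insulin, ascorbate and 1 µM rosiglitazone, an agonist of the adipocyte receptor PPARγ, and were harvested after 8 days and fixed with 2 mM DSG for 15 min and 1% formaldehyde for 30 min. Cultures were kept where over 50% of the cells had differentiated, so undifferentiated stromal cells could make up the rest, and mature adipocytes of the tissue were separated off before culture. Each depot had 1 TLE3 library, and the single input library, chromatin with no antibody, came from iWAT cells. There are no replicates, so no test of depots was possible, and depot and library cannot be told apart.

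Values are scaled reads, the reads in a region of 230 bases after the authors' scaling. The worth of 1 read was 0.883 scaled reads for eWAT, 0.526 for iWAT and 2.77 for BAT, so the BAT library was the shallowest of the 3, and 0 BAT reads allow up to 3 reads or 8.30 scaled reads. Ratios are log2 ratios less the median log2 ratio of the strongest 25% of all regions, a shift of 0.13 (eWAT over iWAT), −1.41 (BAT over eWAT) or −1.46 (BAT over iWAT). Their 95% intervals are exact Clopper-Pearson intervals and cover counting error only. A region counted as listed in a depot where that depot's table holds it. Listed regions started at 15 scaled reads and 10-fold the input value, 2 limits that are read from the values. RNA was not measured, so cell identity was checked only as TLE3 regions near marker genes. A region was listed in eWAT for 7 of 7 adipocyte, 4 of 5 brown adipocyte, 4 of 5 fibroblast, 3 of 3 mesothelial, 3 of 4 macrophage, 3 of 3 endothelial and 2 of 3 skeletal muscle markers. In the same order the counts were 6, 4, 4, 2, 2, 3 and 1 in iWAT and 6, 4, 3, 2, 0, 2 and 0 in BAT.

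The C cluster held 14 of the 29 regions, the B cluster 7, the A cluster 5 and the D cluster 3. The members with regions were Hoxa2, Hoxa3, Hoxa5, Hoxb2, Hoxb9, Hoxb13, Hoxc8, Hoxc10, Hoxc13, Hoxd3, Hoxd4 and Hoxd8 with 1 each, Hoxa4 and Hoxc6 with 2, Hoxb1 with 4 and Hoxc4 with 9. No region was named for the other 22 members: Hoxa6, Hoxa7, Hoxa9, Hoxa10, Hoxa11, Hoxa13, Hoxb3, Hoxb4, Hoxb5, Hoxb6, Hoxb7, Hoxb8, Hoxc5, Hoxc9, Hoxc11, Hoxc12, Hoxd1, Hoxd9, Hoxd10, Hoxd11, Hoxd12 and Hoxd13. The share of members with a region was 42.1% (Wilson interval 27.9 to 57.8%), against 53.0% of 21900 RefSeq protein-coding symbols. Hoxc9, often used as a marker of white fat, was among the members without a region.

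Many of the members without a region lay together in stretches that hold no listed region in any depot. In the A cluster no region was listed for 88.1 kb between the Hoxa3 region and the next region, which is named for Evx1, and the start sites of Hoxa7, Hoxa9, Hoxa10, Hoxa11 and Hoxa13 lie there by their order in RefSeq. In the B cluster the stretch between the Hoxb9 and Hoxb2 regions was 79.2 kb long and holds the starts of Hoxb3 to Hoxb8. In the C cluster 129 kb without a region separated the distal Hoxc13 region from the Hoxc10 region, and in the D cluster 57.1 kb separated the Evx2 region from the Hoxd8 region. Over all regions the median gap to the next region was 13.2 kb. Gaps at least as long as these 4 made up 8.71%, 10.0%, 5.01% and 15.1% of all gaps in that order. These 4 were picked because they hold no region, so their lengths do not show that the clusters have longer gaps than elsewhere. Other gaps in the clusters were shorter than the median, such as those of 3.64 to 8.09 kb from the Hoxa2 to the Hoxa3 region. Values inside the gaps were not analysed here.

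By paralog group, 5 of 7 members of groups 1 to 3 had a region, against 7 of 15 of groups 4 to 8 and 4 of 16 of groups 9 to 13. Regions were grouped by the gene they name and not by position. The Hoxa3 region, with 71.9 scaled reads in BAT, lies beyond the Hoxa5 region, and the Hoxd3 region lies between those of Hoxd8 and Hoxd4. The anterior groups (1 to 3) summed to 509.5 scaled reads for eWAT, 409 for iWAT and 185 for BAT. The central groups (4 to 8) summed to 758, 532 and 326, and the posterior groups (9 to 13) to 222, 182 and 55.3. BAT listed 0 of the 4 posterior regions, against 3 of 8 anterior and 4 of 17 central ones, beside 21.6% of all regions. The centred BAT over eWAT ratio was −0.59 (−1.33 to 0.07) for the posterior groups, −0.05 (−0.43 to 0.32) for the anterior and 0.20 (−0.09 to 0.48) for the central groups. These intervals overlap, and the posterior value rests on 20 BAT reads.

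**Figure D1:**
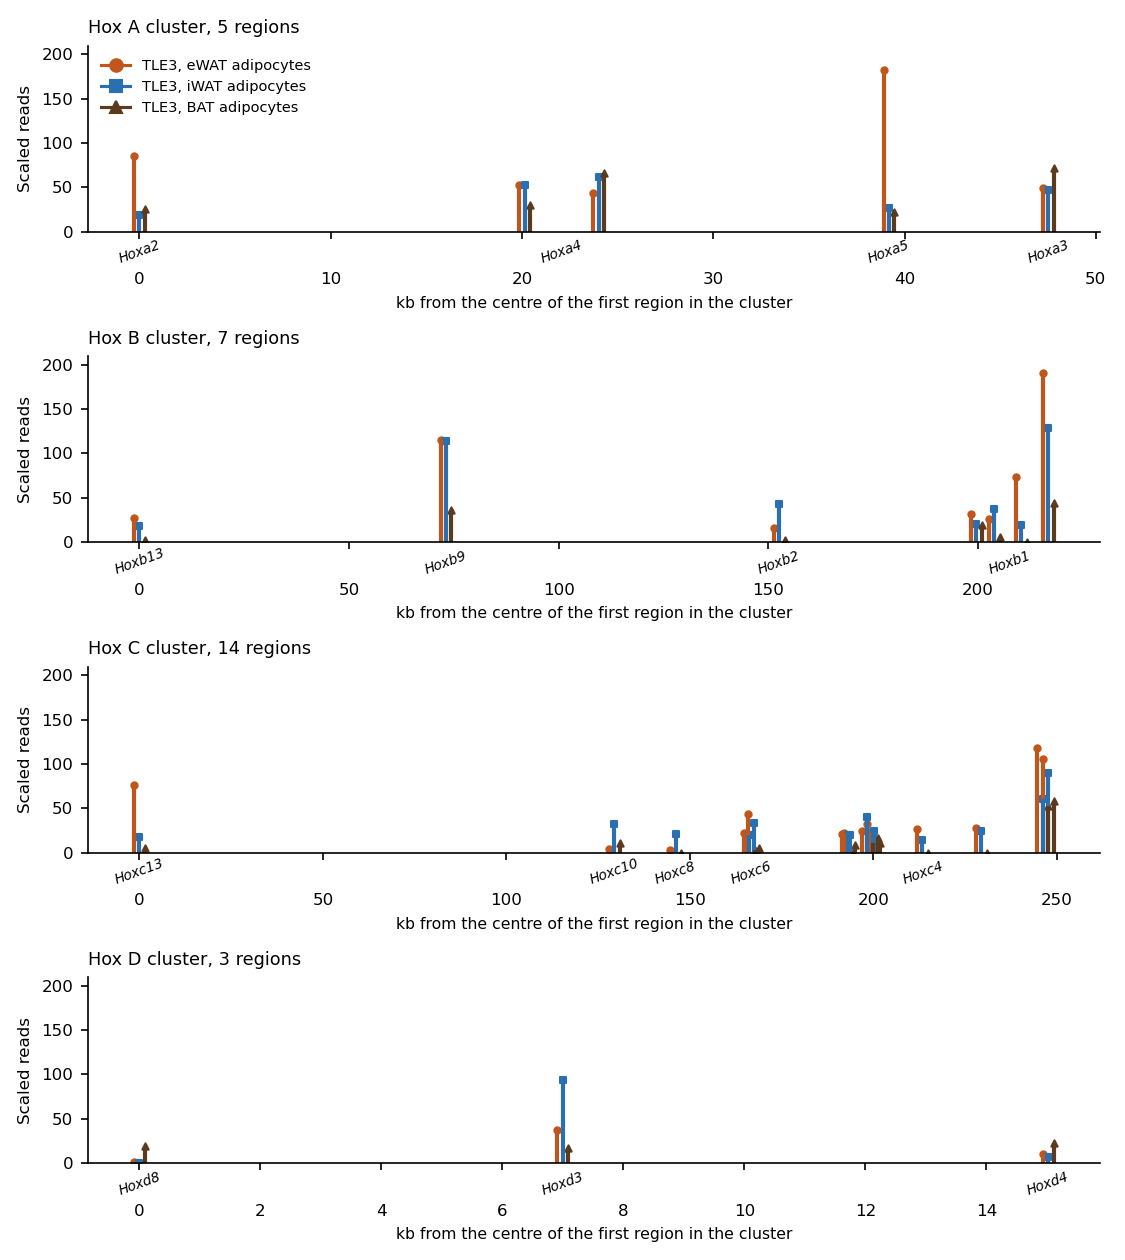
TLE3 values along the 4 Hox clusters, with distance in kb from the centre of the first region of each cluster on the x axis and scaled reads on the y axis. Each stem is 1 region in 1 library, and the highest stems, 191 at Hoxb1 and 183 at Hoxa5, are eWAT values.

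Hox regions were listed in eWAT 21 times, in iWAT 18 times and in BAT 7 times, or 72.4%, 62.1% and 24.1% of the 29. Over all regions the shares were 73.3%, 72.5% and 21.6%, each inside the Wilson interval of the Hox share (54.3 to 85.3%, 44.0 to 77.3% and 12.2 to 42.1%). The white depots shared 11 Hox regions that BAT did not list, while 7 were listed by eWAT only, 4 by iWAT only and 3 by BAT only. All 3 depots listed 2, and BAT shared 1 more with eWAT and 1 more with iWAT. The 3 listed in BAT alone were those of Hoxa3, Hoxd4 and Hoxd8, and the 2 in all 3 depots lay downstream of Hoxb1 and Hoxc4.

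Many Hox regions missing from a list had a TLE3 value above the lower limit and a high input. The median input was 2.60 scaled reads at Hox regions and 1.30 over all regions, and 7 of 29 Hox regions (24.1%) had an input of at least 5 against 4.70% of all regions. Of the 11 Hox regions not listed in iWAT, 8 had at least 15 scaled reads there but under 10 times the input. This share of 72.7% compares with 19.6% of all regions not listed in iWAT. The same held for 4 of 8 Hox regions not listed in eWAT and 7 of 22 not listed in BAT, or 50.0% and 31.8%, against 15.5% and 11.0% of all such regions. The part of the input in these listings beyond the limit itself was not tested.

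**Figure D2:**
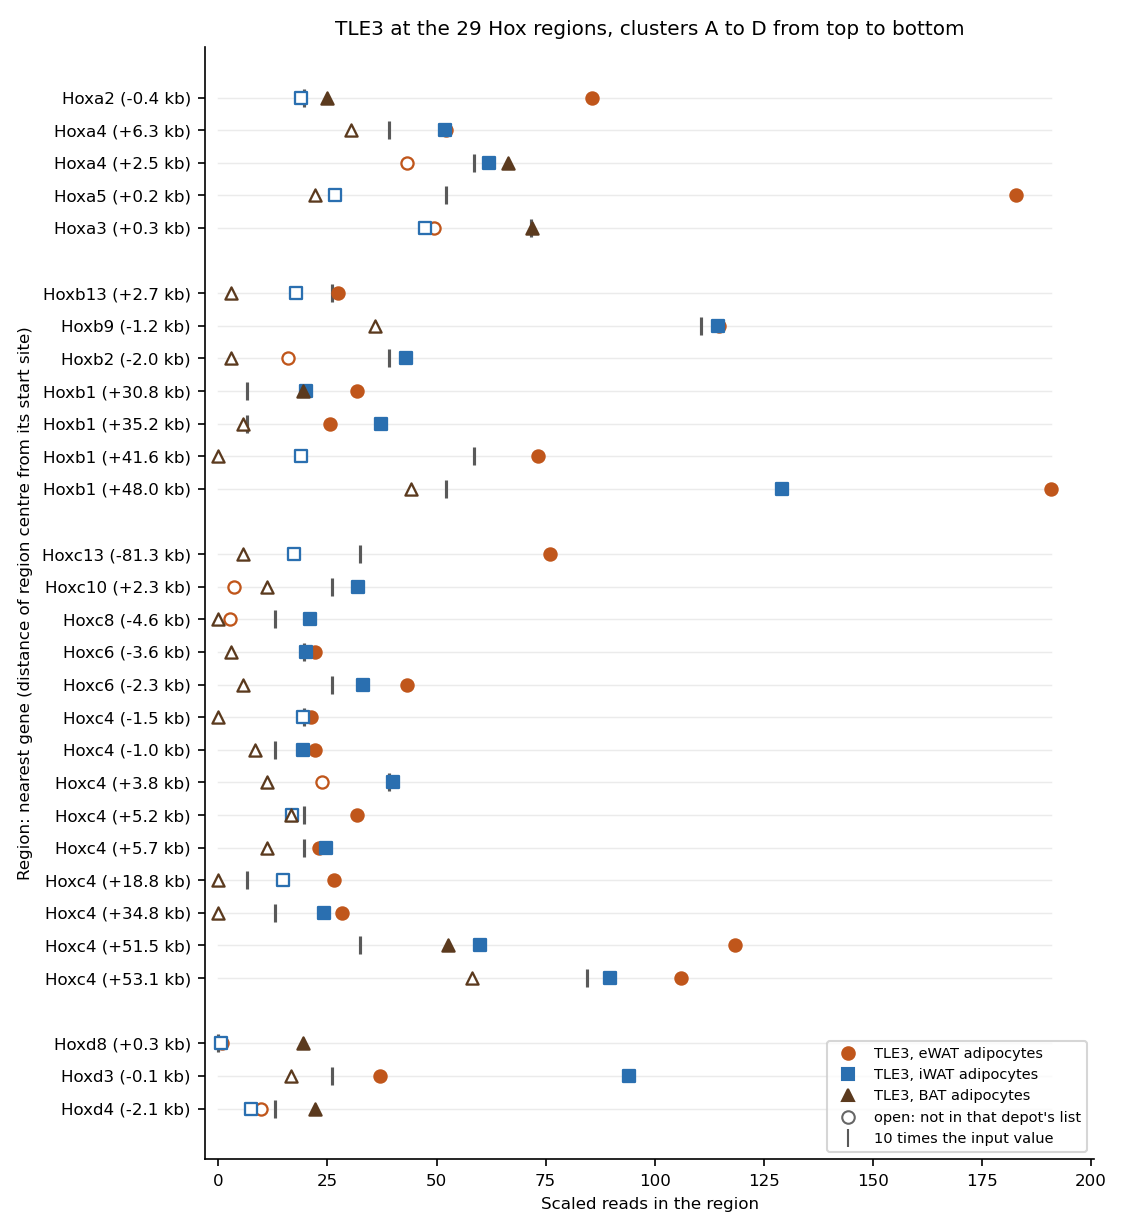
Scaled reads (x axis) at each of the 29 Hox regions (rows, with the distance of the region centre from the start site of the named gene) in the 3 TLE3 libraries. Filled symbols are listed in that depot, open symbols are not, and the vertical bar marks 10 times the input, above which every filled symbol lies.

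Between the eWAT and iWAT libraries, 4 Hox regions were at least 2-fold higher in eWAT and 4 at least 2-fold lower, or 13.8% each. Over all regions 16.8% were past 2-fold higher and 24.5% lower, so Hox regions did not stand out in number. The 4 higher regions were those of Hoxa5, Hoxa2 and Hoxc13 and 1 of the Hoxb1 regions, and the 4 lower ones were those of Hoxc10, Hoxc8, Hoxb2 and Hoxd3. The 4 centrings shift this ratio by 0 to 0.14, too little to end any of the 8 calls. Of the 8 regions, 7 were listed in only 1 of the 2 white depots (Hoxd3 was listed in both), so the listing that put them in the union favours a difference. An exact binomial test on the reads of the 2 libraries, adjusted over all regions and comparing libraries rather than depots, called 6 Hox regions higher and 6 lower, with 22.4% and 29.3% of all regions. The median over Hox regions was 0.07, against −0.04 over all regions. By summed values of each gene, 3 of 16 members were past 2-fold higher in eWAT and 4 lower, beside 11.0% and 11.5% of all genes. Markers of other cell types differed between the same 2 libraries. The macrophage marker Adgre1 had 42.4 (eWAT) and 7.36 (iWAT) scaled reads, a ratio of 2.39 (1.51 to 3.37), and the mesothelial marker Msln had 65.3 and 18.4, a ratio of 1.70 (1.098 to 2.32). These were 1 of 3 macrophage and 1 of 3 mesothelial markers with a region, and the other marker lists had 0 past 2-fold. The regions of Adgre1 and Msln were listed in eWAT alone, so a higher eWAT value was built in. The mesothelial marker Wt1 went the other way with 190 (eWAT) and 326 (iWAT), a ratio of −0.91 (−1.14 to −0.69). The third, Upk3b, had a ratio of 0.69 (0.47 to 0.92). Sums per macrophage marker ran from 42.4 to 162 in eWAT and from 7.36 to 85.7 in iWAT, and per mesothelial marker from 65.3 to 306 and from 18.4 to 326. Their part in the Hox differences was not tested.

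**Figure D3:**
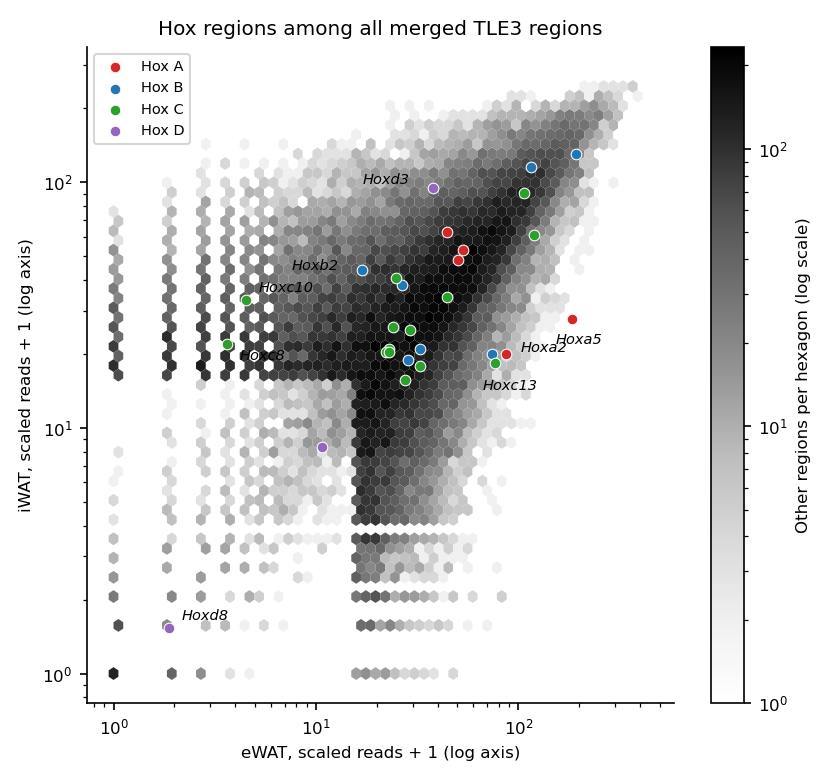
Scaled reads plus 1 in eWAT (x axis) and iWAT (y axis), both on log axes, for all other regions (grey hexagons) and the 29 Hox regions (points coloured by cluster). Hoxa5, Hoxa2 and Hoxc13 lie on the eWAT side, and Hoxd3, Hoxb2, Hoxc10 and Hoxc8 on the iWAT side, with Hoxa5 at 183 and 26.8 before 1 is added.

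In the A cluster, Hoxa2, Hoxa3 and Hoxa5 had regions within 1 kb of their start sites, and those of Hoxa5 and Hoxa2 were over 2-fold higher in the eWAT than in the iWAT library. Hoxa5 acts in lung and neck development and is expressed in fat. Its region, chr6:52154287-52154517 in mm9, lies in the 5′ untranslated region 184 bases past the start site with an input of 5.21. The eWAT library gave 183 scaled reads there, against 26.8 for iWAT and 22.1 for BAT. The eWAT value stood far above the other 2, and 1.27% of all regions had a value at least as high in any library. The Hoxa5 region was listed in eWAT alone and is in the union only through eWAT, so an eWAT value above the others was built in. The ratio of eWAT over iWAT was 2.64 (2.19 to 3.11) and that of BAT over eWAT −1.63 (−2.87 to −0.63). Hoxa2, which specifies the second pharyngeal arch, had a promoter region at chr6:52115097-52115327, 382 bases before its start site. The eWAT library gave it 85.7 scaled reads, iWAT 18.9 and BAT 24.9, and the eWAT over iWAT ratio was 2.05 (1.48 to 2.64). In iWAT it fell short of 10-fold the input, 19.5, by less than 1 scaled read.

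The 250 bases before each of these start sites, from RefSeq (GRCm38.p6, minus strand, 5′ to 3′), show that the 2 promoters differ in composition. The Hoxa5 window (chr6:52204588-52204837) has a GC content of 63.6% with 28 CpG pairs, and the Hoxa2 window (chr6:52164832-52165081) has 46.4% with 6, against medians of 52.4% and 6 over 32851 promoter windows. Capitals in the Hoxa2 window mark a match to the PBX-HOX motif TGATNNAT, searched on both strands like every motif here and found in 7.68% of all windows. No searched motif matched in the Hoxa5 window. Neither window overlaps its TLE3 region, which begins 69 bases past the Hoxa5 start site and ends at position −267 from the Hoxa2 start site.
Hoxa5: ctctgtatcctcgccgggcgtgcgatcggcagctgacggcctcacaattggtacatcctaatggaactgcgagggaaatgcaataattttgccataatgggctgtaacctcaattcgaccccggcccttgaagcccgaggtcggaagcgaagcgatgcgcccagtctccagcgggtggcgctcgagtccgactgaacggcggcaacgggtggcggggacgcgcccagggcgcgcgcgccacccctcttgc
Hoxa2: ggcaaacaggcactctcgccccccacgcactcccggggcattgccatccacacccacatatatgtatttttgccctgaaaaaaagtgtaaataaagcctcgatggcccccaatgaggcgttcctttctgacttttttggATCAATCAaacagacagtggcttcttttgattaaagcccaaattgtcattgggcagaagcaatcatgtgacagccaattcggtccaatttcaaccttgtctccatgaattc

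Hoxa4 and Hoxa3, genes of neck vertebrae and pharyngeal organs, carried the highest BAT values of any Hox region. The Hoxa3 region at chr6:52162609-52162839, 342 bases past the start site, reached 71.9 in BAT against 49.5 in eWAT and 47.3 in iWAT. With an input of 7.16, BAT was the only depot that reached 10 times the input there. The Hoxa3 region is thus in the union only through BAT, so a BAT value above the white ones was built in. The Hoxa4 region at chr6:52139115-52139345, at the end of the gene, had 66.4 in BAT, 62.0 in iWAT and 43.3 in eWAT. The centred BAT over eWAT ratio was 1.95 (1.22 to 2.65) at Hoxa3 and 2.03 (1.26 to 2.76) at this Hoxa4 region, and over iWAT it was 2.06 (1.37 to 2.70) and 1.55 (0.86 to 2.20). These ratios are relative to strong regions, where BAT values were below the white ones. On the authors' scale the BAT ratios of Hoxa3 were 0.54 over eWAT and 0.60 over iWAT, both under 2-fold. None of these Hoxa3 and Hoxa4 ratios stayed past 2-fold under all 4 centrings. The other Hoxa4 region, chr6:52135249-52135479, had 52.1, 52.0 and 30.4 in eWAT, iWAT and BAT and none of its ratios was past 2-fold.

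Summed over the A cluster, the 5 regions came to 413 scaled reads for eWAT, 207 for iWAT and 216 for BAT. The eWAT over iWAT ratio of the sums was 0.87 (0.67 to 1.06), and it was 0.22 without the Hoxa5 region. The BAT over iWAT ratio was 1.51 (1.14 to 1.87) with the centring and 0.059 on the authors' scale. All 4 A cluster genes with a region were at least 2-fold higher in BAT than in iWAT after centring, at 1.85 for Hoxa2, 2.06 for Hoxa3, 1.22 for Hoxa4 and 1.18 for Hoxa5. Over all genes 16.7% were so, and the Hoxa5 interval ran from −0.11 to 2.26. On the authors' scale none of the 4 was past 2-fold, at 0.40, 0.60, −0.24 and −0.28.

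In the B cluster the highest value lay beyond the anterior end. Hoxb1, a gene of hindbrain segmentation, had 4 intergenic regions between 30.8 and 48.0 kb downstream of its start site. The farthest, chr11:96274967-96275197, was at 191 for eWAT, 129 for iWAT and 44.2 for BAT over an input of 5.21, and 1.02% of all regions had a value at least as high in any library. The eWAT over iWAT ratio of 0.43 (0.16 to 0.70) was under 2-fold. The region 41.6 kb downstream, chr11:96268594-96268824, had 73.3 in eWAT, 18.9 in iWAT and 0 in BAT. It was listed in eWAT alone, so a higher eWAT value was built in. This region was 1.82 (1.24 to 2.43) higher in eWAT than in iWAT on the log2 scale. With BAT set to the floor of 3 reads, the centred BAT over eWAT ratio was −1.73, and its interval reached up to −1.40. The 2 nearer Hoxb1 regions had 19.97 to 37.3 scaled reads in the white libraries. At the nearer of these, chr11:96257805-96258035, eWAT had 31.8, iWAT 19.97 and BAT 19.4, and all 3 depots listed it.

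The other B cluster genes had 1 region each. The Hoxb9 region, chr11:96131335-96131565, lies 1.19 kb before the start site of this gene of rib patterning and had 114.8 (eWAT), 114.6 (iWAT) and 35.95 (BAT) scaled reads. Its input of 11.1 was the highest of any Hox region, and the eWAT over iWAT ratio was −0.13 (−0.45 to 0.19). The region 2.02 kb before Hoxb2, which acts in the hindbrain, had 43.1 in iWAT, 15.9 in eWAT and 2.77, or 1 read, in BAT (chr11:96210813-96211043). Its eWAT over iWAT ratio was −1.57 (−2.39 to −0.82). The Hoxb2 region was listed in iWAT alone, so a higher iWAT value was built in. Hoxb13, a gene of tail and prostate, had a region at its end (chr11:96058218-96058448) with 27.4, 17.9 and 2.77 in eWAT, iWAT and BAT and an eWAT over iWAT ratio of 0.48 (−0.27 to 1.23). Summed over the 7 regions, the B cluster had 479.5, 381.0 and 110.6 scaled reads. The BAT over eWAT ratio was −0.70 (−1.21 to −0.24), and −2.12 on the authors' scale and −1.37 with the regions listed in all 3 depots as the centre. BAT listed 1 of the 7 regions, beside 21.6% of all regions.

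In the C cluster the regions of Hoxc10 and Hoxc8 were over 2-fold higher in the iWAT library and that of Hoxc13 in the eWAT library. Hoxc10 is a gene of lumbar patterning and of subcutaneous fat. Its region in the first intron, chr15:102799454-102799684, had 32.1 in iWAT, 3.53 in eWAT and 11.1 in BAT, and the ratio of eWAT over iWAT was −3.31 (−5.24 to −1.88). Hoxc8, known in white fat as a repressor of brown differentiation, had a region 4.62 kb before its start site (chr15:102816238-102816468) with 21.0 in iWAT, 2.65 in eWAT and 0 in BAT. Its eWAT over iWAT ratio was −3.12 (−5.46 to −1.47). The eWAT values of the 2 regions rest on 4 and 3 reads. The distal region named for Hoxc13, a gene of hair and nail, went the other way with 75.9 for eWAT, 17.3 for iWAT and 5.53 for BAT (chr15:102670098-102670328) and a ratio of 2.00 (1.40 to 2.62). It lies 81.3 kb before the Hoxc13 start site. The Hoxc10 and Hoxc8 regions were listed in iWAT alone and that of Hoxc13 in eWAT alone. Each is in the union only through the library where it was higher, so these directions were built in.

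Hoxc4 and Hoxc6, of the central groups, had many regions of modest value that were within 2-fold between the white libraries, though not all were listed in both. Hoxc4 had 9 regions, of which 8 were listed in eWAT, 6 in iWAT and 1 in BAT. Their sums were 401, 309 and 158 scaled reads, with an eWAT over iWAT ratio of 0.24 (0.06 to 0.42). The 7 regions within 34.8 kb of the start site had 21.2 to 31.8 in eWAT, 14.7 to 39.9 in iWAT and 0 to 16.6 in BAT, and 3 of them had 0 BAT reads. The 2 farthest were stronger. At 51.5 kb downstream, chr15:102916244-102916474 had 118, 59.9 and 52.5 in eWAT, iWAT and BAT, and at 53.1 kb chr15:102917772-102918002 had 106, 89.9 and 58.1. Of the 9 eWAT over iWAT ratios none was past 2-fold. The 2 Hoxc6 regions, 3.55 and 2.34 kb before the start site of this thoracic gene, had 22.1 and 43.3 in eWAT, 19.97 and 33.1 in iWAT and 2.77 and 5.53 in BAT. The sums of the whole C cluster were 548, 432 and 183, and the 3 ratios of the sums were 0.21, −0.17 and 0.21 for eWAT over iWAT, BAT over eWAT and BAT over iWAT.

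The D cluster had 3 regions, with iWAT highest at Hoxd3 and BAT highest at Hoxd8 and Hoxd4. Hoxd3, a gene of neck vertebrae, had a promoter region at chr2:74549837-74550067 with 94.1 (iWAT), 37.1 (eWAT) and 16.6 (BAT) scaled reads. The eWAT over iWAT ratio was −1.47 (−1.996 to −0.98). Hoxd8, a thoracic gene, had 19.4 in BAT, 0.88 in eWAT and 0.53 in iWAT at its promoter (chr2:74542840-74543070), which are 7 reads, 1 read and 1 read. The BAT over eWAT ratio was 5.87 (2.91 to 11.36). The region 2.06 kb before Hoxd4 (chr2:74557860-74558090) had 22.1 in BAT, 9.71 in eWAT and 7.36 in iWAT, and its ratio was 2.60 (1.08 to 4.05). Both regions were listed in BAT alone and are in the union only through BAT, so a BAT value above the white ones was built in. They rest on 15 BAT reads in all.

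The Hoxd3 region covers the start site, from 213 bases before it to 17 bases past it. The RefSeq window before that start site (GRCm38.p6, chr2:74711743-74711992, plus strand) is shown for its 213 bases inside the TLE3 region, in capitals. It holds 1 match to AGGTCA, the core site of nuclear receptors, which begins 161 bases before the start site, and 14.0% of all windows hold this motif. The Hoxd8 window (chr2:74704365-74704614, plus strand) lies next to the BAT region, which begins 168 bases past the start site. Capitals there mark 2 matches to CTTTGA, the motif of the TCF/LEF partners of Groucho proteins, and 1 to AGGTCA, with no overlap between them, and 13.8% of all windows hold CTTTGA. The start sites of Hoxd8 and Hoxd3 are 7378 bases apart in the deposited tables and in RefSeq alike.
Hoxd3: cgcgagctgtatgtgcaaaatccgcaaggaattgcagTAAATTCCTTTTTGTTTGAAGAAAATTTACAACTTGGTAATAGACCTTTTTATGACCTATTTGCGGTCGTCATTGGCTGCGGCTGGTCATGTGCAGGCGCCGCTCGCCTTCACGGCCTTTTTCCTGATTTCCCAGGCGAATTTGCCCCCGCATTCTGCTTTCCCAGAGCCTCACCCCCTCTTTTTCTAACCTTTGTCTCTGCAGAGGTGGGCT
Hoxd8: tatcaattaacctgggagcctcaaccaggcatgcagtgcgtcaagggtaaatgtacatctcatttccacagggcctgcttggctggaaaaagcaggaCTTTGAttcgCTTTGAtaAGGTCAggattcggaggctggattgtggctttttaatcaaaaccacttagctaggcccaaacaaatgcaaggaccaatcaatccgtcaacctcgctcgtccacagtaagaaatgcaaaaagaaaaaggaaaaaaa

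Windows were available for 22 of the 38 members, 24 windows in all. Among these 24, AGGTCA was found in 6 (25.0%, against 14.0% of all windows), TGATNNAT in 4 (16.7%, against 7.68%), CTTTGA in 3 (12.5%, against 13.8%) and the homeobox core TAATTA in 2 (8.33%, against 4.84%). Both windows with TAATTA belong to 1 gene, Hoxd11. The E-box CACGTG was found in 4 (16.7%, against 6.02%), CCCNNGGG of early B cell factors in 4 (16.7%, against 11.8%), TTGCNNAA of C/EBP factors in 2 (8.33%, against 9.56%), TGTGGT of RUNX factors in 1 (4.17%, against 14.0%) and the palindromic NFI motif in 0. The median GC content of Hox windows was 58.6%, against 52.4% over all windows.

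The 2 comparisons with BAT use the same BAT library and rest on few BAT reads, 205 over all Hox regions. Against eWAT, 5 Hox regions were past 2-fold higher in BAT and 7 lower, or 17.2% and 24.1%, beside 19.6% and 20.8% of all regions. Against iWAT, 9 were higher and 6 lower, or 31.0% and 20.7%, beside 22.8% and 22.0%. Of the lower calls, 5 of 7 against eWAT and 5 of 6 against iWAT rest on 1 or 2 BAT reads, under the floor of 3 reads that stands in for 0. With every count under 3 reads set to 3, a choice made after seeing the data, the lower regions were 3 against eWAT (Hoxa5, Hoxc13 and 1 of Hoxb1) and 1 against iWAT (Hoxd3), beside 9.29% and 10.0% of all regions. The higher regions were then 5 and 9, beside 22.8% and 26.2%. Past 2-fold under all 4 centrings were 3 higher and 6 lower regions against eWAT, beside 4.76% and 12.9% of all regions, and 2 higher and 1 lower against iWAT, beside 5.08% and 12.3%. The binomial test of reads called 4 Hox regions higher and 2 lower against eWAT and 6 higher and 0 lower against iWAT, beside 7.84%, 3.23%, 8.61% and 3.10% of all regions. By gene, 5 of 16 members were past 2-fold higher and 5 lower against eWAT, beside 11.7% and 19.3% of all genes, and 6 higher and 4 lower against iWAT, beside 16.7% and 16.3%. These counts were 3 and 10, and 2 and 9, on the authors' scale, and 5 and 3, and 6 and 2, with counts under 3 reads set to 3.

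**Figure D4:**
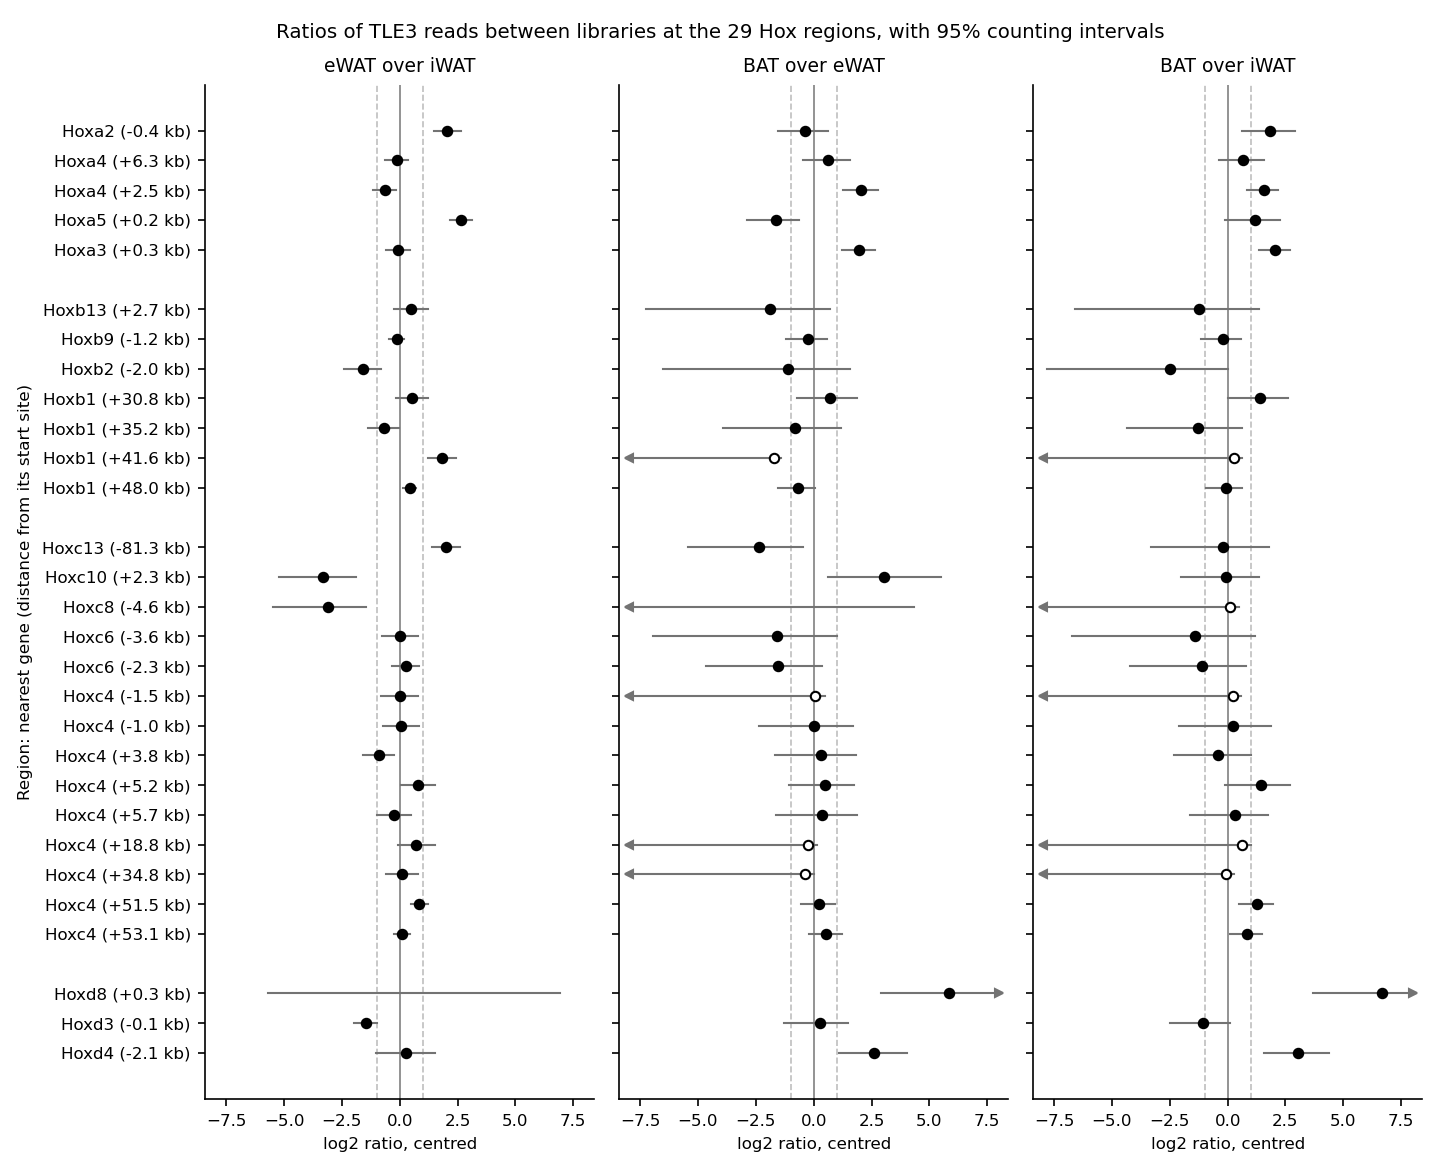
Centred log2 ratios of TLE3 reads (x axis) between each pair of libraries at the 29 Hox regions (rows), with exact 95% intervals for counting error as lines. Open circles are ratios with 1 library set to the floor of 3 reads, arrows mark intervals that run off the axis, and dashed lines mark 2-fold. The BAT panels have the wider intervals.

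Hox regions were close to start sites. Of the 29, 5 lay within 1 kb (17.2%, Wilson interval 7.60 to 34.5%) and 17 within 5 kb (58.6%, 40.7 to 74.5%), against 3.02% and 11.9% of all regions. Their median distance was 3.55 kb, against 38.5 kb. The part played by the close spacing of start sites in the clusters was not tested. By the deposited annotation 19 regions were intergenic, 4 intronic, 3 at a promoter, 2 at a gene end and 1 in a 5′ untranslated region. Values of at least 100 scaled reads in any library were found at 5 of 29 Hox regions (17.2%) and at 9.30% of all regions. These were the regions of Hoxa5 and Hoxb9, the farthest Hoxb1 region and the 2 farthest Hoxc4 regions, and 0 of the 5 reached 100 in BAT.

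Genes and transcripts next to Hox genes also had regions. Of 27 such transcripts, 12 had a region, and 3 of these were past 2-fold higher in eWAT than in iWAT and 0 lower, beside 11.0% and 11.5% of all genes. Of the 3, Hoxaas2 and Hoxaas3 are antisense transcripts inside the A cluster. Hoxaas2 summed to 60.1 (eWAT), 19.97 (iWAT) and 41.5 (BAT) scaled reads, an eWAT over iWAT ratio of 1.46 (0.86 to 2.07). Hoxaas3 had 19.4, 2.63 and 2.77 (2.75, 1.32 to 4.51), and Evx2, the homeobox gene beside Hoxd13, had 15.0, 1.05 and 0 (3.70, 1.63 to 6.86). The regions of Hoxaas3 and Evx2 were listed in eWAT alone and are in the union only through eWAT. An eWAT value above the others was therefore built in, and that of Evx2 was the lowest of any region listed in eWAT. Of the 2 Hoxaas2 regions, 1 was listed in eWAT alone and 1 in BAT alone. The first had 51.2, 15.8 and 16.6 in eWAT, iWAT and BAT and gave most of the eWAT sum. A higher eWAT value was built in there too. Hotairm1, a noncoding RNA at the anterior end of the A cluster, had a region at chr6:52111012-52111242 with 135 in eWAT, 88.3 in iWAT and 69.1 in BAT. Mtx2, whose surroundings hold distal control elements of the D cluster, had 19 regions, and the strongest, 81.9 kb downstream at chr2:74745663-74745893, had 233, 205 and 188. The D cluster members themselves stayed below 100 in every library.

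Among 9 genes of the PBX, MEIS and PREP partners of Hox proteins, 7 had a region, and 0 of these were past 2-fold between eWAT and iWAT, beside 11.0% of all genes higher and 11.5% lower. Meis1 had 22 regions with summed scaled reads of 687 for eWAT, 500.3 for iWAT and 185 for BAT, and its eWAT over iWAT ratio was 0.33 (0.19 to 0.46). The strongest region of Pknox2, which encodes PREP2, had 268 in iWAT, 130 in eWAT and 113 in BAT. Against eWAT, BAT was past 2-fold higher at 0 and lower at 1 of the 7, beside 11.7% and 19.3% of all genes. Against iWAT it was higher at 0 and lower at 2, beside 16.7% and 16.3%. Of 26 genes that regulate Hox clusters, such as Polycomb, Trithorax and retinoic acid receptor genes, 16 had a region. Of these, 3 were past 2-fold higher in eWAT than in iWAT and 1 lower, 1 higher and 2 lower in BAT than in eWAT, and 5 higher and 3 lower in BAT than in iWAT, to be read beside the same shares of all genes. Kmt2a, the Trithorax methyltransferase that keeps Hox genes active, had 63.6 scaled reads for BAT, 33.6 for eWAT and 23.1 for iWAT, and a BAT over iWAT ratio of 2.92 (2.12 to 3.67). The stronger of its 2 regions, at the promoter, had 49.8 in BAT, 17.7 in eWAT and 9.46 in iWAT over an input of 2.60. Only BAT met both listing limits there, so a BAT value above the white ones was built in. The ratio is also relative to strong regions, where BAT values were below the white ones.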

How the data were processed

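The processed data are 3 region tables, 1 per depot, with 4 library columns. The values are a signal, reads in each region multiplied by the authors by 1 constant per library, to a total that the sources do not name. The submitters' processing notes name STAR, HOMER and mm9, with neither versions nor roles, and the peak calling settings were not given in the sources used here. The deposited peak score is 0 in every line and was not used. Distances to start sites and annotations are the deposited ones. If the scale was 10 M reads, an assumption, the libraries held 11.3 M (eWAT), 19.0 M (iWAT), 3.62 M (BAT) and 15.4 M (input) reads.

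Tables were joined by region name, with the same values in every table that holds a region. All values (100%) were whole multiples of 1 step per library within 0.1 read, and reads were recovered so. Ratios were centred on the strongest 25% of regions, and a call is a ratio past 2-fold. A library at 0 reads was set to 3 reads, and no ratio was taken where both libraries had 3 or fewer. Reads of 2 libraries were also compared by an exact binomial test with Benjamini-Hochberg adjustment at 0.05 over all regions. It called 35937 regions between eWAT and iWAT, 7705 between BAT and eWAT and 8148 between BAT and iWAT, and it compares libraries, not depots. Scripts were checked on simulated data (Python 3.11.15, scipy 1.17.1, statsmodels 0.14.6). RefSeq symbols matched 97.1% of the gene names. Members with a region are all named. Full values are given for the highest region of each member, for regions of at least 100 scaled reads and for stable differences with a mean of at least 30. The members and gene lists were chosen with earlier results of these data known.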

Additional observations from a re-analysis of the deposited data

How the results depend on the processing

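No paired analysis was possible because each group has 1 library, and leaving out a library would remove a depot. Between eWAT and iWAT the counts of Hox regions past 2-fold were 7 higher and 7 lower at 1.5-fold, 2 lower at 3-fold and 1 lower where the mean value was 30 or more, against 4 and 4. The A cluster ratio was 0.22 and the D cluster ratio reversed to 0.29 without the strongest region, Hoxa5 and Hoxd3. Comparisons with BAT depended on the centring. With the authors' scaling, BAT over eWAT regions counted 3 higher and 19 lower, BAT over iWAT regions 2 and 17, BAT over eWAT genes 3 and 10 and BAT over iWAT genes 2 and 9. The cluster ratios A to D were then −0.94, −2.12, −1.59 and 0.28 over eWAT and 0.059, −1.78, −1.24 and −0.81 over iWAT, and Hoxa4 and Hoxa5 reversed to −0.24 and −0.28 over iWAT. With the median of regions listed in all 3 depots, 11 regions were lower than in eWAT and 4 higher than in iWAT, and the ratios were −0.19, −1.37 and −0.84 over eWAT for A to C and 0.72, −1.12, −0.58 and −0.15 over iWAT for A to D. With the median of all regions, 1 region and 1 gene were lower than in iWAT, and the ratios were 0.87 (A) and 0.23 (C) over eWAT and 2.00, 0.15 and 0.69 (A to C) over iWAT. Without the strongest region BAT over eWAT was 1.16 (A) and 3.38 (D), and BAT over iWAT 3.85 (D). At 3-fold, 4 regions were lower than in eWAT, and 4 higher and 1 lower than in iWAT. At a mean of at least 30 the counts were 2 higher and 3 lower over eWAT and 5 and 1 over iWAT. The binomial test gave 2 lower over eWAT and 0 lower over iWAT. Subtracting the input gave 11 regions lower than in iWAT, and Hoxb2 reversed to 0.88 over eWAT because its BAT value, under the input, was set to 3 reads. With every count under 3 reads set to 3, an alternative chosen after seeing the data, 3 regions and 3 genes were lower than in eWAT and 1 region and 2 genes lower than in iWAT, Hoxb2 reversed to 0.47 over eWAT and Hoxb13 to 0.35 over iWAT. Lists of equal length held 8 (eWAT) and 6 (iWAT) Hox regions, and a minimum of 30 scaled reads left 13 (eWAT) and 3 (BAT). Ratios of single genes stayed close in 282 cases, moved in 26 and reversed in the 5 named, and except where stated the cause was not tested. All other alternatives left counts within 1.5 times or cluster ratios within their intervals. BAT depth limits these results, since 0 reads allow 8.30 scaled reads.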
